A study of Homo sapiens with 2 samples.

Results

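Epithelial-mesenchymal transition (EMT) is the switch by which epithelial cells loosen their junctions and take on a migratory, mesenchymal character. The 10 genes described here are regulators of that switch and were chosen by symbol from a deposited table of 58735 genes. All 10 symbols were found, each in 1 row. The mesenchymal side holds the zinc finger repressors SNAI1 (Snail) and SNAI2 (Slug), the basic helix-loop-helix factors TWIST1 and TWIST2, and the zinc finger and homeodomain repressors ZEB1 and ZEB2. The epithelial side holds the grainyhead factor GRHL2, the ETS factor ELF3, the zinc finger repressor OVOL1 and ESRP1. ESRP1 is an RNA-binding splicing regulator and not a transcription factor, and the deposited family column likewise gives it no family.

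SNAI and ZEB proteins repress epithelial genes such as the cadherin gene CDH1 by binding E-boxes, short DNA motifs in their promoters. TWIST proteins bind E-boxes as dimers with E proteins such as TCF3. GRHL2 and OVOL factors hold ZEB1 down in epithelial cells, and microRNAs of the miR-200 family do so by pairing with the ZEB1 and ZEB2 mRNAs. In ovarian carcinoma, cells can carry epithelial and mesenchymal features side by side.

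RNA was sequenced after poly(A) selection in A2780, an established human ovarian cancer cell line, with 1 library labelled shJAM3 and 1 labelled shControl. The shJAM3 cells had JAM3, the gene of a cell-contact adhesion molecule, targeted for stable knockdown, and the shControl cells carried an empty vector and are labelled wild type. The titles carry the prefix sh where the design text names siRNA, and the construct's sequence and whether the stable cells were a pool or a clone are not given in the sources used here. Each condition is thus a single library, and every difference below is a difference between 2 libraries, with no test and no replicate behind it. In bulk RNA of this kind, fewer cells that express a gene and less of its RNA per cell cannot be told apart.

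Levels are FPKM (fragments divided by gene length in kilobases and by library size), as deposited. Whole fragment numbers were recovered from them, and bracketed ranges are 95% intervals that cover counting error only. A gene counts as measured when the 2 libraries average 1 FPKM or more. A measured gene was called when its log2 ratio of shJAM3 to shControl, on log2(FPKM + 1), was at least 1 in either direction, which is a 2-fold difference on that scale. For genes around or under 1 FPKM the added 1 makes differences look smaller.

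The shJAM3 library held 16455079 fragments assigned to genes and the shControl library 15570262. JAM3 itself had 14 fragments in shJAM3 and 18 in shControl, a ratio of 0.716 (0.330 to 1.52). The interval holds 1, and its lower bound of 0.330 lies above the level left by the knockdown of over 70% that the design text names. On these few fragments the counts thus did not show a reduction of that size, and shJAM3 and shControl here mean the libraries labelled so. Of 8 markers of epithelial and ovarian carcinoma cells, the keratins KRT7, KRT8 and KRT18 were measured, and the 8 summed to 414.5 FPKM in shJAM3 and 426.4 FPKM in shControl. Single markers differed in both directions beyond counting error, with ratios of 0.666 (0.645 to 0.688) for KRT7 and 0.471 (0.344 to 0.641) for PAX8, and of 1.11 for KRT8, 1.14 for KRT18 and 2.25 (1.98 to 2.57) for MUC16. PAX8, MUC16, EPCAM and CDH1 were below the limit, and WT1 had 0 fragments in shJAM3 and 1 in shControl. Leukocyte markers summed to 0.805 FPKM in shJAM3 and 2.28 FPKM in shControl, with PTPRC at 0 in both libraries and CD14 the only one measured. Endothelial markers summed to 0.405 FPKM in shJAM3 and 0.482 FPKM in shControl. Fibroblast markers summed to 14.3 FPKM in shJAM3 and 17.3 FPKM in shControl, nearly all of it COL1A1 and PDGFRB, with DCN at 1 fragment in shJAM3 and 3 in shControl, and LUM at 0 in shJAM3 and 2 in shControl. The part of these other markers in the results was not tested.

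Of the 10 regulators 6 were measured, 5 from the mesenchymal side and 1 from the epithelial side, and each of the 6 was above 1 FPKM in both libraries. SNAI1 had the highest level in both, ahead of ELF3. In shJAM3 the order after these was SNAI2, TWIST2, ZEB1 and TWIST1, with the counting intervals of SNAI2 and TWIST2 overlapping. In shControl the order was TWIST2, TWIST1, SNAI2 and ZEB1, with the intervals of TWIST1 and SNAI2 overlapping. ZEB2, OVOL1, ESRP1 and GRHL2 followed, all under 1 FPKM in either library. Among 811 measured transcription factors of the deposited family column, 110 had a higher mean level than SNAI1, 195 a higher one than ELF3 and 241 a higher one than TWIST2. The numbers were 362 for SNAI2, 443 for TWIST1 and 478 for ZEB1, so SNAI1, ELF3, TWIST2 and SNAI2 lay above the middle of the expressed factors and TWIST1 and ZEB1 below it.

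**Figure D1:**
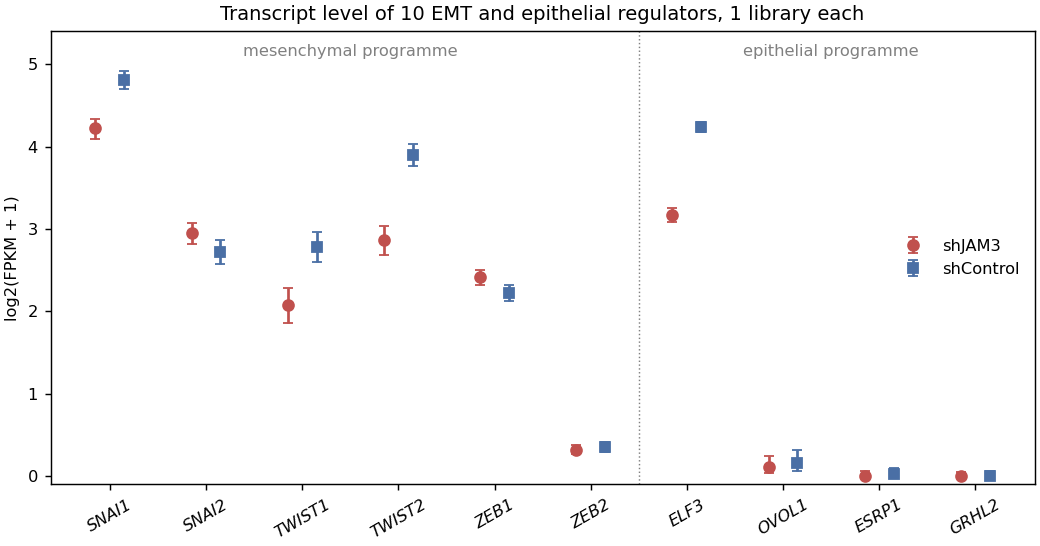
Transcript level of each regulator as log2(FPKM + 1) on the vertical axis, with the shJAM3 library as red circles left of the shControl library as blue squares, and bars for the 95% counting interval. SNAI1 stands highest in both libraries, TWIST1, TWIST2, SNAI1 and ELF3 are lower in shJAM3, and ZEB2, OVOL1, ESRP1 and GRHL2 lie near 0.

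The order depends on which length a gene is divided by. The deposited lengths are the union of all annotated exons, which is 25058 bases for ZEB2 and 7191 for ELF3, against 9541 and 4994 bases for the longest principal transcript of each. Divided by the principal transcript, in a setting chosen after seeing the data, ELF3 was at 11.5 FPKM in shJAM3 and 25.6 FPKM in shControl, still second to SNAI1, and ZEB2 at 0.641 FPKM in shJAM3 and 0.716 FPKM in shControl, still below 1. The only exchange of rank among the 6 was between SNAI2 and TWIST1 in shControl, at 7.83 and 7.15 FPKM.

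By the rule of size, 2 of the 6 measured regulators were at least 2-fold lower in shJAM3 and none was higher, against 2.10% lower and 1.30% higher of all 12214 measured genes and 2.84% lower and 0.370% higher of the 811 measured transcription factors. The called pair was TWIST2 and ELF3, from opposite sides of the switch, and both stood just past the limit. The counting intervals of their log2 ratios, -1.26 to -0.81 for TWIST2 and -1.17 to -0.96 for ELF3, both held the limit of -1. Scaled to the recovered fragment totals instead, TWIST2 lay just short of it, which left ELF3 alone. Counting intervals of the plain FPKM ratio left out 1 for all 6, with SNAI1, TWIST1, TWIST2 and ELF3 lower and SNAI2 and ZEB1 higher. Such intervals left out 1 for 33.6% of measured genes on the lower side and 33.0% on the higher side, so this was common. The median log2 ratio over the 6 was -0.65, beside 0.00 over all measured genes and -0.09 over the 811 measured transcription factors. Over all 10 it was -0.04, which takes in the regulators below 1 FPKM. The added 1 holds their log2 ratios near 0, and GRHL2, without a fragment, enters as 0. By family, the median was -0.01 over 310 measured C2H2 zinc finger factors, -0.26 over 44 basic helix-loop-helix factors and -0.10 over 17 ETS factors, with 7, 3 and 2 of them called lower. The families include the regulators themselves, with TWIST2 among the 3 and ELF3 among the 2.

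TWIST2 (ENSG00000233608), one of 2 TWIST genes, spans bases 238848032 to 238910543 of chromosome 2 (GRCh38, plus strand). It had 197 fragments in shJAM3 and 402 in shControl, or 6.29 FPKM in shJAM3 and 13.9 FPKM in shControl. The ratio was 0.451 (0.379 to 0.537) and the log2 ratio -1.03. Of the 811 measured transcription factors, 2.47% had a lower log2 ratio. No other annotated gene shares its exons.

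ELF3 (ENSG00000163435), an ETS factor of epithelial differentiation, spans bases 202007945 to 202017188 of chromosome 1 (plus strand). It had 957 fragments in shJAM3 and 1965 in shControl, or 7.98 FPKM in shJAM3 and 17.8 FPKM in shControl, the most fragments of any of the regulators. The ratio was 0.449 (0.415 to 0.485) and the log2 ratio -1.07, with 1.97% of measured transcription factors lower. ELF3-AS1 on the opposite strand and AL691482.3 on the same strand each share 664 bases, 9.23%, of its exons. ELF3-AS1 was at 1.97 FPKM in shJAM3 and 3.39 FPKM in shControl, a ratio of 0.581 (0.480 to 0.702), and AL691482.3 had 0 fragments in shJAM3 and 12 in shControl. The library protocol describes no step that marks the strand, so reads from the shared bases cannot be told apart.

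The bases just upstream of the RefSeq start are shown for TWIST2 and ELF3 because they were the called regulators. Both RefSeq starts lie inside the gene spans given above. Capitals mark CAGGTG or its reverse complement CACCTG, the E-box form that SNAI and ZEB proteins bind. Sequences are from RefSeq on GRCh38.p14, the 250 bases before the start, 5′ to 3′ on the plus strand, at chr2:238847835-238848084 for TWIST2 and chr1:202010337-202010586 for ELF3.
TWIST2: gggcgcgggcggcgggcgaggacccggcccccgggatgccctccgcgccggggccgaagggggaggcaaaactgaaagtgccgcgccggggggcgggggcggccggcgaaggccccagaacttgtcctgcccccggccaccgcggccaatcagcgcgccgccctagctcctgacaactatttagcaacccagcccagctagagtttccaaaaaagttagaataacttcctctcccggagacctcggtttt
ELF3: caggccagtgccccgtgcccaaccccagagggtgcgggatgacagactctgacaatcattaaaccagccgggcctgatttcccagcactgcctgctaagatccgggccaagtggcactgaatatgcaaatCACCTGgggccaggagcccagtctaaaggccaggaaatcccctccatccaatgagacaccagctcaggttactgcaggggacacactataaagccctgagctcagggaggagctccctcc
The ELF3 window held 1 such motif, beginning 120 bases before the start, and the TWIST2 window held none. Of 35116 windows of the same length, searched on both strands, 17.5% held it. The TWIST2 window had 68.4% GC and 26 CpG dinucleotides, and the ELF3 window 58.4% GC and 4, against a median of 58.0% GC over all windows. A match is a description of the letters and no evidence of binding. Windows were found for 4 of the 10 genes, TWIST2, ELF3, ZEB1 and ZEB2. ZEB1 had windows at 7 starts. The motif began 57 bases before 1 of them, and 85 and 242 bases before another. The other ZEB1 windows and the ZEB2 window held none.

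SNAI1 and TWIST1 were lower in shJAM3 without reaching the limit. SNAI1 (ENSG00000124216), at bases 49982999 to 49988886 of chromosome 20 (plus strand), had 496 fragments in shJAM3 and 700 in shControl, or 17.6 FPKM in shJAM3 and 27.0 FPKM in shControl. Its ratio was 0.653 (0.581 to 0.733) and its log2 ratio -0.59. The processed copy SNAI1P1 had no fragment in either library. TWIST1 (ENSG00000122691), at bases 19020991 to 19117672 of chromosome 7 (minus strand), had 109 fragments in shJAM3 and 183 in shControl, or 3.21 FPKM in shJAM3 and 5.86 FPKM in shControl. Its ratio was 0.549 (0.429 to 0.699), its log2 ratio -0.70. A gene on the opposite strand with 0 fragments in shJAM3 and 1 in shControl, AC003986.2, shares 6.94% of the TWIST1 exon bases.

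SNAI2 and ZEB1 were slightly higher in shJAM3. SNAI2 (ENSG00000019549), at bases 48917604 to 48921740 of chromosome 8 (minus strand), had 380 fragments in shJAM3 and 292 in shControl, or 6.72 FPKM in shJAM3 and 5.60 FPKM in shControl, a ratio of 1.20 (1.03 to 1.40) and a log2 ratio of 0.22. ZEB1 (ENSG00000148516), at bases 31318495 to 31529814 of chromosome 10 (plus strand), had 623 fragments in shJAM3 and 487 in shControl, or 4.32 FPKM in shJAM3 and 3.66 FPKM in shControl. Its ratio was 1.18 (1.04 to 1.33) and its log2 ratio 0.19. ZEB1-AS1, which shares 4.23% of the ZEB1 exon bases on the opposite strand, was at 1.86 FPKM in shJAM3 and 2.43 FPKM in shControl, a ratio of 0.766 (0.596 to 0.984), below 1 where that of ZEB1 was above it.

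**Figure D2:**
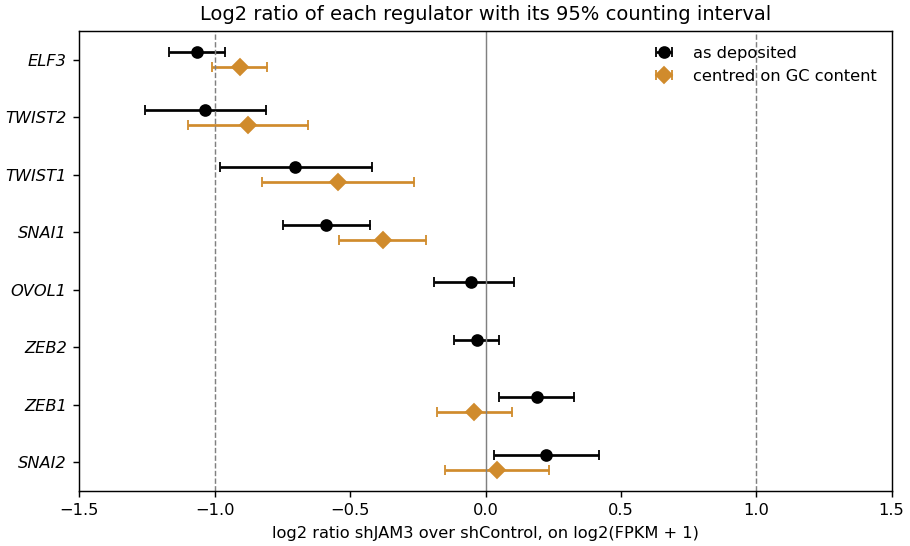
Log2 ratio of shJAM3 to shControl on log2(FPKM + 1), on the horizontal axis, for the 8 regulators with more than 3 fragments in a library, as deposited (black circles) and, for the 6 measured ones, after centring on transcript GC content (orange diamonds), with 95% counting intervals and dashed lines at a 2-fold difference. As deposited, ELF3 and TWIST2 lie past the lower line at -1.07 and -1.03, and after centring both lie inside it at -0.91 and -0.88.

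The balance within each pair of relatives can be read inside a library, where the scaling between libraries cancels. The quotient of SNAI2 to SNAI1 in FPKM was 0.381 in shJAM3 and 0.207 in shControl, a 1.84-fold difference (1.51 to 2.23) in the direction of SNAI2. The quotient of TWIST1 to TWIST2 was 0.511 in shJAM3 and 0.421 in shControl, a 1.22-fold difference whose interval (0.897 to 1.64) held 1. The quotient of ZEB2 to ZEB1 was 0.0565 in shJAM3 and 0.0744 in shControl, a 0.759-fold difference with an interval (0.558 to 1.03) that also held 1. Of the 3 pairs, only SNAI2 and SNAI1 differed beyond counting error, and in both libraries SNAI1 was the more abundant of them per length. They were also the pair least alike in transcript GC content, with 41.4% for SNAI2 and 58.2% for SNAI1. The quotient does not cancel the GC trend described next. Centred on GC content, the log2 ratio was 0.04 for SNAI2 and -0.38 for SNAI1, against 0.22 and -0.59 as deposited. The part of base composition in this difference was not tested.

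The log2 ratio moved with the base composition of the transcripts, and the regulators divided along it. Over 10496 measured protein-coding genes it followed the GC content of the longest transcript with r = -0.50, a correlation across genes that are not independent replicates. The regulators with a lower ratio had GC-rich transcripts, 58.2% GC for SNAI1, 57.2% for TWIST1, 57.0% for TWIST2 and 56.0% for ELF3. Those with a higher ratio had 41.4% GC for SNAI2 and 38.5% for ZEB1. In 20 equal bins by GC, the median log2 ratio was -0.16 in the bin of TWIST1, TWIST2 and ELF3, -0.21 in that of SNAI1, 0.18 in that of SNAI2 and 0.23 in that of ZEB1. The part of base composition in the differences between the libraries was not tested.

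Centred on those medians, the log2 ratio was -0.91 (-1.01 to -0.81) for ELF3, -0.88 (-1.10 to -0.66) for TWIST2, -0.55 (-0.83 to -0.26) for TWIST1 and -0.38 (-0.54 to -0.22) for SNAI1. All 4 remained lower beyond counting error, and none reached the 2-fold limit, against 0.705% of protein-coding genes past it on the lower side and 0.324% on the higher side after centring. ELF3 and TWIST2 were still near the lower end of their bin, where 0.952% and 1.52% of 525 genes had a lower ratio. For TWIST1 the share was 6.29%, and for SNAI1 14.5% of 524 genes. SNAI2 at 0.04 (-0.15 to 0.24) and ZEB1 at -0.04 (-0.18 to 0.10) had intervals that held 0, so neither could be told from the median of genes of like composition. Over the 6 regulators the centred median was -0.46, with 1 above 0 and 5 below, beside -0.08 over measured transcription factors.

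**Figure D3:**
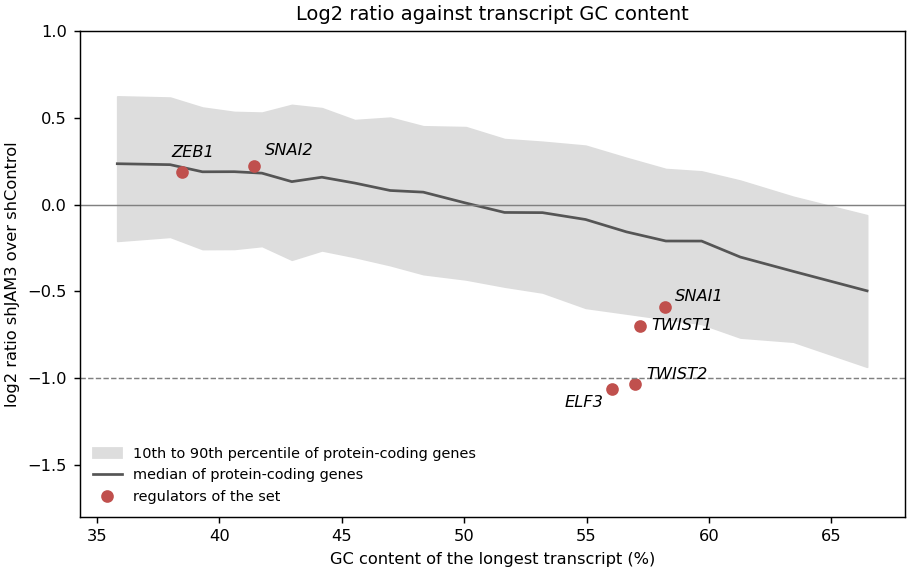
Log2 ratio of shJAM3 to shControl against transcript GC content in percent, with the median (line) and the 10th to 90th percentile (grey band) of measured protein-coding genes in 20 GC bins and the 6 measured regulators as red points. ZEB1 and SNAI2 lie on the line at low GC, SNAI1 lies inside the band, and TWIST1, TWIST2 and ELF3 lie below it.

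**Figure D4:**
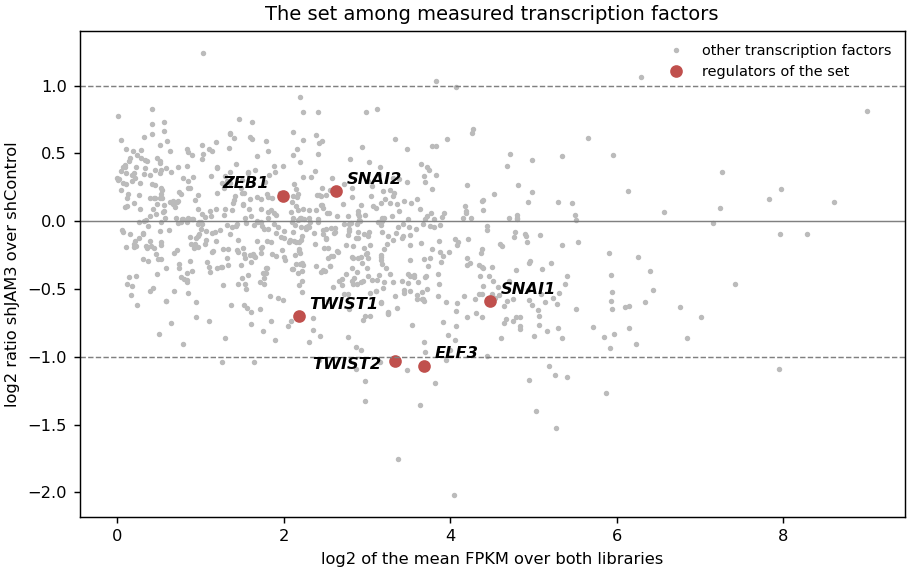
Log2 ratio of shJAM3 to shControl against the log2 mean FPKM for the 811 measured transcription factors, with the 6 measured regulators in red and named and dashed lines at a 2-fold difference. ELF3 and TWIST2 lie at the lower edge of the cloud with 1.97% and 2.47% of factors below them, while SNAI2 and ZEB1 lie inside it, above 79.7% and 76.9% of factors.

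ZEB2 was transcribed at a low level in both libraries. ZEB2 (ENSG00000169554), at bases 144364364 to 144524583 of chromosome 2 (minus strand), had 102 fragments in shJAM3 and 105 in shControl, or 0.244 FPKM in shJAM3 and 0.273 FPKM in shControl. The ratio of 0.895 had an interval (0.675 to 1.19) that held 1, so a difference was not detectable at this depth. ZEB2-AS1 shares 5.18% of the ZEB2 exon bases and had 1 fragment in shJAM3 and none in shControl, and the processed copy ZEB2P1 had none in either.

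Since miR-200 microRNAs pair with the ZEB mRNAs, their sequences are shown with the sites in the mRNAs. Capitals in the microRNAs mark the seed, bases 2 to 8, by which they fall into groups with the seeds AACACUG and AAUACUG. All 5 genes lie on chromosomes 1 and 12, and the sequences are from RefSeq (GRCh38.p14).
hsa-miR-141-3p: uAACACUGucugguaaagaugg
hsa-miR-200a-3p: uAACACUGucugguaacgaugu
hsa-miR-200b-3p: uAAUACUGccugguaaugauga
hsa-miR-200c-3p: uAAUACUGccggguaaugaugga
hsa-miR-429: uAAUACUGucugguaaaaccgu
Matches to these seeds, CAGTGTT and CAGTATT on the mRNA strand, were counted in the part of the longest principal transcript after the stop codon, from GENCODE 29. ZEB1 held 8 matches in 1938 bases and ZEB2 9 in 5370 bases. Of 2266 such regions within 20% of the length of that of ZEB1, 0.0441% held at least as many. That share counts the ZEB1 region itself, and no other region reached it. Of 917 regions near the length of that of ZEB2, its own again counted, 0.218% held at least as many as ZEB2. SNAI2 and GRHL2 held 1 match each, ESRP1 held 2, and SNAI1, TWIST1, TWIST2, ELF3 and OVOL1 held none. At least as many were held by 25.2% of regions of like length for SNAI2, 55.2% for GRHL2 and 6.92% for ESRP1. Any match was held by 14.5% to 17.6% of such regions for SNAI1, TWIST1, TWIST2 and ELF3, and by 36.0% for OVOL1. The first match in each of the ZEB genes is shown in capitals, with 8 bases on either side.
ZEB1: tatcttatCAGTATTatcactct
ZEB2: attttgtaCAGTGTTaaggccta
The host transcript of miR-200c and miR-141, MIR200CHG, had no fragment in either library, which allows up to 0.514 FPKM in shJAM3 and 0.558 FPKM in shControl when 3 fragments are taken as the limit of a count of 0. The genes of all 5 hairpins also had none, although poly(A)-selected libraries of this fragment size do not measure mature microRNAs.

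The epithelial regulators other than ELF3 were at or near 0. OVOL1 (ENSG00000172818), at bases 65787022 to 65797219 of chromosome 11 (plus strand), had 5 fragments in shJAM3 and 7 in shControl, or 0.0779 FPKM in shJAM3 and 0.118 FPKM in shControl, a ratio of 0.658 with a wide interval (0.165 to 2.41). The antisense gene AP001266.1 covers 27.1% of its exon bases and had no fragment in either library. ESRP1 (ENSG00000104413), at bases 94641074 to 94707466 of chromosome 8 (plus strand), had no fragment in shJAM3, which allows up to 0.0369 FPKM, and 1 in shControl, or 0.0134 FPKM. GRHL2 (ENSG00000083307), at bases 101492432 to 101669726 of chromosome 8 (plus strand), had none in either, which allows up to 0.0297 FPKM in shJAM3 and 0.0322 FPKM in shControl. No ratio is given for ESRP1 or GRHL2, and a difference in these 3 genes was not detectable at this depth.

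Relatives of the regulators were present in part. ESRP2, the paralogue of ESRP1 and likewise a splicing regulator, was at 11.1 FPKM in shJAM3 and 11.8 FPKM in shControl, a ratio of 0.946 (0.866 to 1.03). GRHL1 was at 0.995 FPKM in shJAM3 and 0.982 FPKM in shControl, and GRHL3 and OVOL2 were under 1 FPKM in both libraries. SNAI3, the third SNAI gene, had 26 fragments in shJAM3 and 68 in shControl, a ratio of 0.352 (0.215 to 0.561) and a log2 ratio of -0.90, which was -0.41 after GC centring. It was measured only through shControl, at 0.900 FPKM in shJAM3 and 2.56 FPKM in shControl. KLF5, a zinc finger factor of epithelial cells, was at 48.5 FPKM in shJAM3 and 73.3 FPKM in shControl, a log2 ratio of -0.59, or -0.67 after GC centring. Of 17 listed relatives 9 were measured, 3 with a log2 ratio above 0 and 6 below. The antisense gene ZEB1-AS1 was listed with the relatives and is 1 of the 6. Above 0 were ELF2 at 0.36, with a ratio of 1.40 (1.21 to 1.61), ELF1 at 0.25 and KLF4 at 0.13. None of the 9 was called, against 2.10% lower and 1.30% higher of all measured genes. The median of the 9 was -0.15, or 0.00 after GC centring, which put 5 above 0 and 4 below.

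The partners that TWIST proteins need, and the ID proteins that sequester those partners, differed among themselves in level. TCF3, which encodes the E proteins E12 and E47, was at 27.8 FPKM in shJAM3 and 34.2 FPKM in shControl, a ratio of 0.813 (0.772 to 0.855), and its log2 ratio of -0.29 was 0.01 after GC centring. TCF12 had a ratio of 0.856 (0.794 to 0.923), and its log2 ratio of -0.20 was -0.39 after GC centring. ID1 was at 302.1 FPKM in shJAM3 and 323.0 FPKM in shControl, and ID3 at 156.5 FPKM in shJAM3 and 146.0 FPKM in shControl, both far above TWIST1 and TWIST2 per length. ID2 was at 10.4 FPKM in shJAM3 and 5.52 FPKM in shControl, a ratio of 1.89 (1.58 to 2.26) and a log2 ratio of 0.81, which was 0.85 after GC centring. Of 9 partners and inhibitors 5 were measured and none was called, against 2.10% lower and 1.30% higher of all measured genes. Their median log2 ratio was -0.10, or 0.11 after GC centring.

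Among genes that these factors control in other cells, the 2-fold limit was passed by 2 of 18 measured epithelial genes and 1 of 15 measured mesenchymal genes, all lower in shJAM3, beside 2.10% lower of all measured genes, of which 6167 lay above 0 and 6046 below. CDH1, the classical target of SNAI1 and ZEB1, had 25 fragments in shJAM3 and 16 in shControl, or 0.243 FPKM in shJAM3 and 0.169 FPKM in shControl, a ratio of 1.44 (0.739 to 2.88). EPCAM was at 0.690 FPKM in shJAM3 and 0.904 FPKM in shControl, and the claudin gene CLDN3 had no fragment in either library. The claudin gene CLDN4 was at 11.7 FPKM in shJAM3 and 33.2 FPKM in shControl, a log2 ratio of -1.42, and the membrane protease gene PRSS8 at 1.81 FPKM in shJAM3 and 6.42 FPKM in shControl, a log2 ratio of -1.40. Both stayed past the limit after GC centring, at -1.21 and -1.02. Of the 30 epithelial genes, 7 of the 18 measured lay above 0 and 11 below, with a median of -0.32, or -0.05 after GC centring.

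The mesenchymal gene CDH2 was at 8.72 FPKM in shJAM3 and 8.11 FPKM in shControl. Its ratio of 1.07 (0.964 to 1.20) had an interval that held 1. VIM was slightly higher, at 50.2 FPKM in shJAM3 and 44.9 FPKM in shControl, a ratio of 1.12 (1.07 to 1.17) beyond counting error. LOXL2, a matrix crosslinking enzyme, was at 45.2 FPKM in shJAM3 and 100.4 FPKM in shControl, a log2 ratio of -1.14, which was -0.93 after GC centring. Of 29 mesenchymal genes 15 were measured, 2 above 0 and 13 below, with a median of -0.30, or -0.25 after GC centring. As deposited, the lower ratios of ELF3, SNAI1, TWIST1 and TWIST2 thus stood beside medians below 0 for both the epithelial and the mesenchymal list. After GC centring the epithelial median was -0.05 and the mesenchymal one -0.25.

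**Figure D5:**
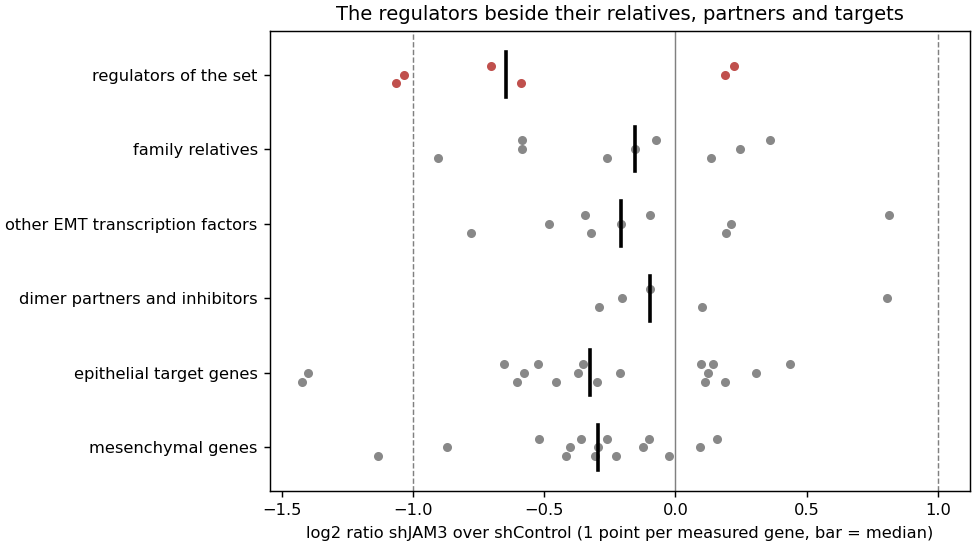
Log2 ratio of shJAM3 to shControl for each measured gene of the set (red) and of 5 lists of relatives, partners and targets (grey), with the median of each list as a black bar and dashed lines at a 2-fold difference. The set has a median of -0.65, epithelial and mesenchymal genes have medians of -0.32 and -0.30, and single genes of the epithelial and mesenchymal lists lie past the lower line.

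ESRP proteins act on splicing, which gene-level values do not show. Of 12 genes whose exons they are known to choose between, 11 were measured. None was called, against 2.10% lower and 1.30% higher of all measured genes. The median log2 ratio of the 11 was -0.10, or -0.20 after GC centring. FGFR2, whose alternative exons are a classical ESRP readout, had no fragment in shJAM3 and 2 in shControl. CD44, another such gene, was at 38.9 FPKM in shJAM3 and 41.7 FPKM in shControl.

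Likeness of pattern to other genes was not computed, because 2 libraries give any pair of genes a correlation of 1 or -1.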

How the data were processed

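The 1 deposited table held FPKM for 58735 genes in 1 shJAM3 and 1 shControl library, scaled by the authors. Among the tools that the submitters' processing notes list, without saying what each did, are featureCounts 1.5.0-p3 and HISAT2 2.0.5. All 58735 identifiers, coordinates and lengths, the last as the union of exons, matched GENCODE 29 (GRCh38). FPKM times length was a whole multiple of 1 step for 100% of values above 0 (tolerance 0.001 fragments), which gave the fragments per gene. The step in each library implies a size 1.01 times the recovered total in shJAM3 and 0.987 times it in shControl, so the deposited values carry a further scaling.

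Where a symbol had several rows, the one with the largest mean FPKM was used, which left 57169 genes. No statistical test was possible. Ratio intervals are exact conditional binomial and level intervals exact Poisson (SciPy 1.17.1). They cover counting error only, and PCR copies can make them too narrow. GC centring subtracted the median of measured protein-coding genes in 20 bins by GC content of the longest transcript. The recovery and the rule of size were tested on simulated counts. The genes and lists were chosen with earlier results of these data known. Genes named outside the set were JAM3, CDH1, CDH2, VIM, EPCAM, cell type markers, genes sharing exons with a regulator, processed copies, and up to 4 per list with the largest absolute log2 ratio. The other named genes, among them the miR-200 genes, ESRP2, GRHL1, GRHL3, OVOL2, ID1, CLDN3, FGFR2, CD44, TGFB1 and PRRX1, were chosen after their values were seen.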

Additional observations from a re-analysis of the deposited data

How the results depend on the processing

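Of 94 values recomputed under other settings, 72 kept within counting error, within 1.5 times the count or at the same rank. Scaling by the median ratio moved none, and no called value changed sign. On recovered fragment totals the log2 ratio of TWIST2 rounded to -1.0, just short of the limit, which left 1 regulator lower by the rule. GC centring left 0, with ELF3 at -0.91 and TWIST2 at -0.88, and it gave SNAI1 -0.38 and ZEB1 -0.04. It was not applied to regulators below 1 FPKM, since the bins hold measured genes. With a pseudocount of 0.1 FPKM, OVOL1 was at -0.30. With no filter the median over the regulators was -0.04, which takes in those below 1 FPKM, whose log2 ratios the added 1 holds near 0. GC centring gave medians of 0.00 for the relatives, 0.11 for the dimer partners and inhibitors, -0.05 for the epithelial genes and -0.20 for the ESRP targets.

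Of all genes, 361 were higher and 477 lower with a pseudocount of 0.1 FPKM, against 159 and 257 as reported. After GC centring 34 protein-coding genes were higher and 74 lower, against 41 and 148 measured protein-coding genes as deposited. With no filter 254 genes were higher, and at a mean of at least 5 FPKM 52 were higher and 141 lower. The cause of these shifts was not tested beyond each setting's own construction. No replicate could be left out, with 1 library per group. No paired analysis was possible because each group holds 1 library and the labels give no replicate numbers. Depth limits OVOL1, ESRP1 and GRHL2, with at most 7 fragments in a library.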

Other observations

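In 5 other lists of genes around these regulators, no measured gene reached the 2-fold limit. Of all 12214 measured genes, 2.10% were past it on the lower side and 1.30% on the higher side. Of 16 corepressors and chromatin enzymes that work with SNAI and ZEB proteins, all were measured, 8 above 0 and 8 below, with a median log2 ratio of -0.02. KDM1A, the histone demethylase that SNAI1 recruits, was at 44.4 FPKM in shJAM3 and 69.2 FPKM in shControl, a ratio of 0.642 (0.617 to 0.668). The arginine methyltransferase gene PRMT5 had a ratio of 1.54 (1.39 to 1.70). Of 19 listed genes for kinases, ubiquitin ligases and other factors that set the stability of these proteins, 15 were measured, 5 above 0 and 10 below, with a median of -0.19. BTRC, the ubiquitin ligase subunit that recognises phosphorylated SNAI1, was at 9.85 FPKM in shJAM3 and 5.25 FPKM in shControl, a ratio of 1.88 (1.69 to 2.09). FBXL14, another ligase subunit for SNAI1, had a ratio of 0.606 (0.520 to 0.706). LATS2 had a ratio of 0.623 (0.564 to 0.688) and SIAH2 one of 0.610 (0.570 to 0.652). Protein levels were not measured here.

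Of 26 genes for signals upstream of these factors 21 were measured, 7 above 0 and 14 below, with a median log2 ratio of -0.32. TGFB1, a classical inducer of EMT, was at 79.5 FPKM in shJAM3 and 79.4 FPKM in shControl. HIF1A had a log2 ratio of -0.70, which was -0.94 after GC centring, NOTCH1 -0.66 and -0.27, and TGFBR3 -0.61 and -0.77. The receptor gene MET was at 11.4 FPKM in shJAM3 and 6.76 FPKM in shControl, a ratio of 1.68 (1.54 to 1.84). Of 16 other EMT transcription factors 9 were measured, 3 above 0 and 6 below, with a median of -0.21. YBX1 was at 657 FPKM in shJAM3 and 373 FPKM in shControl, a log2 ratio of 0.81, or 0.86 after GC centring. FOXC2 was at 38.6 FPKM in shJAM3 and 66.9 FPKM in shControl, both higher than SNAI1 per length, a log2 ratio of -0.78, or -0.39 after GC centring, and PRRX1 had no fragment in either library. Of 10 splicing regulators, ESRP2 among them and all measured, 4 lay above 0 and 6 below, with a median of -0.04, and MBNL2 had a ratio of 0.684 (0.636 to 0.734) and RBFOX2 one of 1.42 (1.32 to 1.53).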
